A study of Mus musculus with 12 samples.

Results

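The genes described here are the glutathione transferases and the other glutathione and NRF2-linked antioxidant genes of mouse. They were taken by gene symbol from the deposited gene table of a bulk RNA-Seq study of Faf2 in neural progenitor cells. The rule took every Gst gene of the alpha, kappa, mu, omega, pi and theta classes and every Mgst gene, which gave 25 genes, and 22 further genes by name. The named genes were Gclc, Gclm, Gss, Gsr, Gpx1, Gpx4, Gpx7, Gpx8, Nfe2l2, Keap1, Nqo1, Hmox1, Txnrd1, Txn1, Srxn1, Prdx1, Prdx4, Sod1, Sod2, G6pdx, Ggct and Ggt7. The 47 genes were 47 of the 57010 genes in the table, and the rule used names alone.

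NE-4C cells are a progenitor line from embryonic mouse brain that can be driven towards neurons with retinoic acid (RA). The 12 libraries made 4 groups of 3, each from its own passage: wild-type cells and cells of a Faf2 knockout line, either not induced (WT NO, KO NO) or given 1 µM RA for 24 h and harvested on day 3 (the WT RA and KO RA groups). FAF2 is an adaptor at the membrane of the endoplasmic reticulum that helps to hand misfolded proteins over for degradation. The KO line was made with CRISPR/Cas9 by deleting exon 4 and was grown from picked colonies, so a difference between KO and WT and a difference between that line and its parent cannot be told apart. NO cells were collected without induction, and they are not a vehicle control kept for the same days as the RA cells.

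Glutathione is the main small thiol of the cell, made by glutamate-cysteine ligase (GCLC with its modifier GCLM) and glutathione synthetase (GSS), and kept reduced by glutathione reductase (GSR). Glutathione transferases join it to reactive compounds, and glutathione peroxidases, peroxiredoxins and superoxide dismutases remove peroxides and superoxide. Many of these genes are switched on by NRF2 (Nfe2l2), which KEAP1 holds at a low level until oxidants or electrophiles release it and which binds the antioxidant response element.

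Antioxidant response element letters lay in the start regions of a part of the genes. RefSeq windows of 250 bases before to 50 bases after each start (GRCm38.p6) were matched by symbol for 41 of the 47 genes. Gstt2, Gclc, Hmox1, Gsr, Gsta5 and Gsta4 had no entry. The core letters TGACNNNGC, searched on both strands, lay in at least one window of 12 of the 41 genes (29.3%), against 3781 of 27025 genes in the whole table (14.0%). The 12 were Gsta3, Nfe2l2, Srxn1, Gstm5, Gstm7, Gclm, Prdx1, Ggct, Mgst1, Txnrd1, Sod1 and G6pdx. The stricter letters TGACTCAGC lay in 1 window, that of Prdx1, against 149 of 32851 windows in all (0.454%). The windows of 4 of these genes are shown because they run from a gene called in KO cells (Gstm5) over enzymes that were lower in some comparisons (Prdx1, Srxn1) to NRF2 itself. The matching letters stand in capitals, and each window was placed in GRCm39 by its only exact match. Gstm5 lies at chr3:107802920-107803219 on the plus strand, with the letters at bases 209 to 217 of the window. Prdx1 lies at chr4:116542546-116542845 (plus strand), with a match on the opposite strand at bases 118 to 126. Srxn1 lies at chr2:151947194-151947493 (plus strand), with a match on the opposite strand at bases 279 to 287. Nfe2l2 lies at chr2:75534958-75535257 on the minus strand, with the letters at bases 11 to 19.
Gstm5: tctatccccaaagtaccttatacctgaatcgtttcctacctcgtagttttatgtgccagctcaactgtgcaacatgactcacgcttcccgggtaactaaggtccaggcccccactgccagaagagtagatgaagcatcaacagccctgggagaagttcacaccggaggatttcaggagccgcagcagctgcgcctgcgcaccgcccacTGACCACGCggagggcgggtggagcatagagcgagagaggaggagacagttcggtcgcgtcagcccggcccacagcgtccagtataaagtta
Prdx1: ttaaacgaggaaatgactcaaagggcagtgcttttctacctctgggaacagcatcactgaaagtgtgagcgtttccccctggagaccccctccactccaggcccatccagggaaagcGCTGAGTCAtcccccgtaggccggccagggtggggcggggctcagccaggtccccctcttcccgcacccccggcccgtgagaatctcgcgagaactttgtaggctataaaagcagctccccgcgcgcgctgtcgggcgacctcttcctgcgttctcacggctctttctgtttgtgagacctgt
Srxn1: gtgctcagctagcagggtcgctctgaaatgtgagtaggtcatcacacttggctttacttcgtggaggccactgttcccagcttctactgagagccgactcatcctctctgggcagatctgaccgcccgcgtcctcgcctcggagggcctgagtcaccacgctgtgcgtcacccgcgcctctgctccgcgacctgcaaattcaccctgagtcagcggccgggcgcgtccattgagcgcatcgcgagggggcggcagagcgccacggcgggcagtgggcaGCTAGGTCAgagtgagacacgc
Nfe2l2: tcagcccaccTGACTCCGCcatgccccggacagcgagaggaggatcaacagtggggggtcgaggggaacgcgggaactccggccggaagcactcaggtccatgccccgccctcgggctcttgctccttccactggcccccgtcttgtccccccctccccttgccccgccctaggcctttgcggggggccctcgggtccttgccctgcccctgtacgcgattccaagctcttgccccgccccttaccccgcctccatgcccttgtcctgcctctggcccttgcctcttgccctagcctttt

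Gstp1 and Gstp2, which were higher in KO cells, held no TGACNNNGC in their windows. Their windows were added after their values were seen, because they are neighbouring copies and share most of their start region. In a global alignment 246 of the 300 bases of the windows were identical (82.0%). Both held the letters TGAGTCA, known as a binding sequence of AP-1, at bases 177 to 183 of the Gstp1 window (chr19:4087863-4088162, minus strand) and bases 162 to 168 of the Gstp2 window (chr19:4092172-4092471, minus strand). In both windows the bases gc follow, and TGAGTCAGC departs from the core letters TGACNNNGC only by G in place of C. The windows were not searched for that form, so the lack of TGACNNNGC does not show that a related element is absent. These letters, on either strand, lay in windows of 6 of the 41 genes (14.6%) and of 1607 of 27025 genes in all (5.95%), and every window with TGACTCAGC holds them too. They stand in capitals below, and a match is a description of the sequence, not of a bound site.
Gstp1: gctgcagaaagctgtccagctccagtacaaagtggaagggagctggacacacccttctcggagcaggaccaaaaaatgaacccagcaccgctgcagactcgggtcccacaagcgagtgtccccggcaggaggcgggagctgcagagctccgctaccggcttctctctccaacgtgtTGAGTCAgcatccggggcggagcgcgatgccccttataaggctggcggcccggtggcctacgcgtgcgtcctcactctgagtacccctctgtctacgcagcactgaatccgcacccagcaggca
Gstp2: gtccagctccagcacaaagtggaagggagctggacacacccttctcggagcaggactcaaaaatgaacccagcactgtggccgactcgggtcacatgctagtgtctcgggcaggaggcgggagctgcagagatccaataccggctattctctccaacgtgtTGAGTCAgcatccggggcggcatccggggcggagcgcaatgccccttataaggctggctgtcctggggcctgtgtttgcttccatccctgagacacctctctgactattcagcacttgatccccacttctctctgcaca

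Library totals ran from 17370049 to 30738694 counts, and a floor of 3 counts in a library corresponded to 0.0838 to 0.297 CPM (counts scaled by library size with TMM factors, which bring the libraries to a common scale). The deposited values are scaled from TPM, so CPM levels are per transcript length and can be compared between genes. KO RA replicate 3 stood apart: 62.5% of its counts lay on its 100 most abundant genes against 37.1% to 50.4% in the other 11 libraries, its TMM factor was 0.394 against 0.872 to 1.28, and 23.5% of its counts were mitochondrial against 9.10% to 17.7%. Results are therefore given from all 12 libraries and from the 11 without it. Faf2 itself stood at 21.0 to 25.4 CPM in KO NO and 36.0 to 50.01 in WT NO, but at 36.1, 34.3 and 18.7 in KO RA and 35.1 to 49.1 in WT RA, which overlapped. A gene-level count covers the exons that the deletion left in place and does not check it. The markers of neural progenitors (Sox2, Sox1, Nes, Pax6, Otx2, Cdh2, Msi1 and Fabp7) summed to 281 to 336 CPM in WT NO, 266 to 307 in KO NO, 314 to 344 in WT RA and 336 to 431 in KO RA, although Fabp7 and Sox1 were under 1 CPM in all 6 NO libraries. The sums overlapped in NO cells, with Otx2 the largest part (120 to 163 CPM), but some single markers did not. Pax6 (0.791 to 2.01 CPM in KO NO, 4.12 to 9.30 in WT NO), Msi1 (10.6 to 17.6, 26.7 to 34.4), Cdh2 (23.8 to 28.6, 38.55 to 45.02) and Nes (31.25 to 37.19, 41.45 to 60.49) were lower in KO NO. Sox2 was higher in KO NO (57.7 to 63.5, 23.65 to 44.28), and Otx2 overlapped. Summed neuron markers stood at 80.2 to 109 CPM in WT NO and 71.7 to 89.4 in KO NO, and higher in WT RA (141 to 161) and KO RA (143 to 207). The 207 was KO RA replicate 3, with Stmn2 at 164.5 CPM, and replicates 1 and 2 reached at most 170.5. Single markers did not all follow the sum. Rbfox3 was lower in WT RA (0.288 to 0.437 CPM) than in WT NO (0.528 to 4.76), and lower in KO RA (0.0991 to 0.784) than in KO NO (1.27 to 2.07). Tubb3, Elavl3 and Snap25 overlapped between WT NO and WT RA. Summed mesenchymal markers stood at 19.9 to 53.3 CPM in WT NO, 32.5 to 40.4 in KO NO, 78.6 to 85.7 in WT RA and 84.2 to 203 in KO RA. Endoderm markers summed to 5.34 to 7.36 CPM in WT NO, 2.34 to 3.53 in KO NO, 5.11 to 8.83 in WT RA and 4.46 to 8.40 in KO RA, with Ttr at the floor. Astroglial (9.07 to 19.1 CPM, with Aqp4 and S100b at the floor), endothelial (0.564 to 2.81 in the NO and WT RA libraries, 4.16 to 12.6 in KO RA) and blood markers (2.11 to 5.35, with Hbb-bs at the floor) were low. The part of these cell types in the differences below was not tested, and in bulk samples fewer cells of a type and less RNA per cell cannot be told apart.

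The antioxidant genes spanned the range from undetected to very abundant. In WT NO, 9 of the 47 had a mean level of at least 100 CPM, 12 lay between 10 and 100, 15 between 1 and 10, and 11 were under 1 CPM. Prdx1, Sod1 and Gpx4, the enzymes that reduce hydrogen peroxide, superoxide and lipid peroxides, together held 58.3% of the summed level in WT NO, 55.5% in KO NO, 61.0% in WT RA and 51.6% in KO RA replicates 1 and 2. The summed level of all 47 genes was 3496 to 4304 CPM in WT NO, 3441 to 3900 in WT RA and 3585 to 4273 in KO NO, which overlapped. KO RA replicates 1 and 2 were lower than all other libraries at 2506 and 2736 CPM, while KO RA replicate 3 was the highest at 10860 CPM. That order rests on the TMM factors. As a share of unscaled counts, the group took 0.427% in KO RA replicate 3, which is within the 0.421% to 0.497% of the NO libraries, and 0.320% and 0.335% in KO RA replicates 1 and 2, where WT RA took 0.328% to 0.349% and so lay below every NO library.

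Of the 47 genes, 42 passed the filter on low counts and entered the tests. The 5 that did not were Gstt4, at 0 in every library, and Gsta1, Gsta2, Gsta5 and Gstp3, which did not exceed 0.239 CPM in any library. Gsta1, Gsta2 and Gsta5, which the liver is known for, were thus nearly absent, Gsta1 and Gsta2 reaching at most 5 counts in a library, and Gsta4, which detoxifies the lipid peroxidation product 4-hydroxynonenal, was the abundant alpha-class gene. Some transferases share sequence that a read cannot resolve. Of the 31-base words of the canonical Gstp1 transcript 61.1% also occurred in Gstp2, and 68.7% of those of Gstp2 in Gstp1, while Gstm1 and Gstm3 shared 14.4% and 15.2% of theirs. Gstm5, Gpx7, Gpx8 and Txnrd1 shared none with another gene of the group.

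In cells that were not induced, a few transferases and Gpx7 were higher in KO than in WT, while Nfe2l2, Keap1 and most of the other genes were not called by edgeR. In the edgeR quasi-likelihood fit on 12 libraries, 3 of 42 genes were called higher in KO NO than in WT NO (Gpx7, Gstm5 and Gstp1) and 0 lower. Over all 16502 genes tested, 0.788% were called higher and 0.351% lower. Without KO RA replicate 3, which is in neither group but enters the common estimate of the spread, 5 of 42 were called higher (Gpx7, Gstm5, Gstp1, Gstp2 and Gstm1) and 3 lower (Gpx8, Srxn1 and Txnrd1), against 4.79% and 4.82% of all genes. For the 0 called lower on 12 libraries, 2 genes had an unadjusted p under 0.05, and DESeq2 called 1 lower (Srxn1) and limma-voom 4 (Gpx8, Sod2, Srxn1 and Txnrd1). In both directions together, 8 of the 42 genes and 2011 of all 16502 had an unadjusted p under 0.05. DESeq2 on 12 libraries gave an adjusted p for only 36 of the 42 genes in each comparison. Gstm5, Gpx8, Prdx1, Prdx4 and Txn1 were among those without one. For the calls of DESeq2 and limma-voom, here and below, the share over all genes was not worked out. Their counts therefore do not tell these genes from the rest. The median log2 fold change was 0.14 over the 42 genes and −0.01 over all genes in the fit on 11 libraries. Every KO NO library lay above every WT NO library for 13 of the 42 genes and 2561 of all 16502. Every one lay below for 6 and 2501, so such separation was common. In KO RA against WT RA it held for 8 higher and 6 lower genes (1645 and 1803 of all). In WT RA against WT NO it held for 4 and 8 (2498 and 2305), and in KO RA against KO NO for 4 and 13 (2179 and 2801).

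Gstp1, the pi-class transferase that also binds the stress kinase JNK, had the largest rise in CPM among the 42 genes in KO NO (chr19:4085405-4088068, GRCm39). It stood at 8.80, 19.3 and 3.08 CPM in WT NO, 149, 146 and 136.5 in KO NO, 8.17, 5.09 and 15.8 in WT RA and 109.5, 112 and 68.6 in KO RA. Every KO library lay above every WT library, also KO RA replicate 3, which was the lowest of the KO libraries. Its log2 fold change in KO NO was 3.79 ± 0.62 with 12 libraries (SE, n = 3 against 3), where the SE rests on a spread pooled over all 4 groups. The edgeR adjusted p was 0.0168 with 12 libraries and 0.00489 with 11. Over 19 alternatives to the processing, its adjusted p ran from 5.57e-09 to 0.0890, and 14 of them called it.

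Gstp2, the adjacent copy (chr19:4090285-4096023), had values of 6.30, 2.88 and 2.75 CPM in WT NO, 13.9, 16.2 and 10.2 in KO NO, 1.64, 1.02 and 0.860 in WT RA and 5.96, 10.8 and 2.77 in KO RA. KO NO and WT NO did not overlap. The log2 fold change was 1.75 ± 0.49 (edgeR adjusted p = 0.139) with 12 libraries and 1.76 ± 0.37 (adjusted p = 0.0178) with 11. Since the copies share sequence, the split between them is uncertain, and their sum was 5.83 to 22.1 CPM in WT NO, 147 to 163 in KO NO, 6.11 to 16.7 in WT RA and 71.4 to 123 in KO RA. Gstp3, the remaining gene of the class, was at 0 in 11 libraries and at 0.0838 CPM in 1. Of the 37 other genes tested within 500 kb of Gstp1, 0 were called in KO NO against WT NO in either fit.

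Gstm5, a mu-class transferase (chr3:107803137-107806005), was nearly absent from WT cells. Its levels were 0, 0.111 and 0.122 CPM in WT NO, 10.6, 11.4 and 6.70 in KO NO, 0.625, 0.242 and 0 in WT RA and 10.8, 9.64 and 126 in KO RA. The 12 libraries split by genotype without overlap, and KO RA replicate 3 was far above the other KO libraries. In KO NO the log2 fold change was 6.83 ± 1.36 (edgeR adjusted p = 0.038) with 12 libraries and 6.84 ± 0.80 (adjusted p = 0.00112) with 11. Its adjusted p ran from 0.00112 to 0.166 over 17 alternatives. The WT NO libraries were at or near the floor, so that the size of this fold change, unlike its direction, rests on few counts.

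Gstm1, the most abundant mu-class gene in these cells (chr3:107919380-107925380), measured 37.1, 32.2 and 19.3 CPM in WT NO, 130.1, 81.96 and 99.1 in KO NO, 92.4, 49.9 and 79.2 in WT RA and 84.9, 122 and 19.4 in KO RA. All KO NO libraries exceeded all WT NO libraries, but KO RA replicate 3 fell to the level of WT NO. The log2 fold change in KO NO was 1.81 ± 0.54 (edgeR adjusted p = 0.161) with 12 libraries and 1.82 ± 0.30 (adjusted p = 0.0055) with 11, and 4 of 19 alternatives called it (adjusted p 0.000889 to 0.411). Gstm5 and Gstm1 lie in a cluster of 7 mu-class genes on chromosome 3, of which the other 5 (Gstm2, Gstm3, Gstm4, Gstm6 and Gstm7) were not called in this comparison by edgeR in either fit. Gstm4, Gstm6 and Gstm7 had every KO NO library above every WT NO library, as had 2561 of all 16502 genes tested. DESeq2 with 11 libraries and limma-voom with 12 called Gstm4 and Gstm6 higher. Gstm4 stood at 0.106, 0.333 and 2.78 CPM in WT NO, 5.71, 5.57 and 5.50 in KO NO, 0.144, 0.0970 and 0.478 in WT RA and 2.39, 2.83 and 8.33 in KO RA. Its log2 fold change in KO NO was 2.36 ± 0.86 with 11 libraries, and that of Gstm6 was 0.82 ± 0.24 (edgeR adjusted p = 0.112 and 0.0567). In the 11-library fit, 0 of the 19 genes within 500 kb of Gstm5 that are no member of the group were called.

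Gpx7, a peroxidase of the endoplasmic reticulum that passes oxidizing equivalents to protein folding enzymes (chr4:108257583-108264158), was at 0 in all WT NO libraries. Its levels were 0, 0 and 0 CPM in WT NO, 8.29, 4.89 and 4.52 in KO NO, 0.337, 0 and 0.0955 in WT RA and 3.38, 3.41 and 14.3 in KO RA. The mean of KO NO was 57.5-fold above the floor of 3 counts per library (0.103 CPM on average). The deposited values are scaled, so this floor is not a number of reads. Gpx7 was called in KO NO against WT NO (edgeR adjusted p = 0.0155 with 12 libraries and 0.00172 with 11). Over 18 alternatives its adjusted p ran from 4.84e-09 to 0.0650. Of 17 other genes tested within 500 kb of Gpx7, 4 were called higher and 1 lower in the 11-library fit, against 4.79% and 4.82% of all genes. With 12 libraries 0 of the 17 were called, and their median log2 fold change was 0.318, against 0.091 over chromosome 4.

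Gpx8, the sister peroxidase of the same compartment (chr13:113178829-113183292), went the other way in cells that were not induced. It stood at 10.00, 9.02 and 10.04 CPM in WT NO, 3.34, 5.36 and 4.998 in KO NO, 10.4, 13.8 and 18.7 in WT RA and 12.2, 7.97 and 153 in KO RA. KO NO lay below WT NO in every library, with a log2 fold change of −1.08 ± 0.26 (edgeR adjusted p = 0.0268) with 11 libraries, and edgeR did not call it with 12 (−1.08 ± 0.85, adjusted p = 0.728). Other genes of chromosome 13 were lower too. With 12 libraries the median log2 fold change was −0.36 over its 648 tested genes, against −0.02 over all genes. It was −0.457 over the 8 other genes within 500 kb of Gpx8, of which 0 were called in either fit. The part of this shift in the fall of Gpx8 was not tested. KO RA replicate 3 was 15.2-fold above the mean of KO RA 1 and 2, the widest gap of the 42 genes.

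Srxn1 and Txnrd1, sulfiredoxin and cytosolic thioredoxin reductase, are classical NRF2 targets, and both were lower in KO NO with 11 libraries. Srxn1 had levels of 13.3, 10.7 and 13.1 CPM in WT NO, 4.45, 8.71 and 4.55 in KO NO, 4.33, 5.53 and 3.68 in WT RA and 6.23, 5.72 and 6.94 in KO RA. In KO NO it gave a log2 fold change of −1.06 ± 0.29 (edgeR adjusted p = 0.133) with 12 libraries and −1.06 ± 0.27 (adjusted p = 0.0345) with 11. Txnrd1 measured 197, 173 and 110.2 CPM in WT NO, 97.96, 83.3 and 96.2 in KO NO, 77.6, 93.6 and 76.8 in WT RA and 62.1, 59.96 and 28.1 in KO RA. The 3 KO NO libraries were below the 3 WT NO libraries, WT NO replicate 3 being the nearest. The log2 fold change was −0.79 ± 0.31 (edgeR adjusted p = 0.326) with 12 libraries and −0.78 ± 0.18 (adjusted p = 0.0264) with 11.

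**Figure D1:**
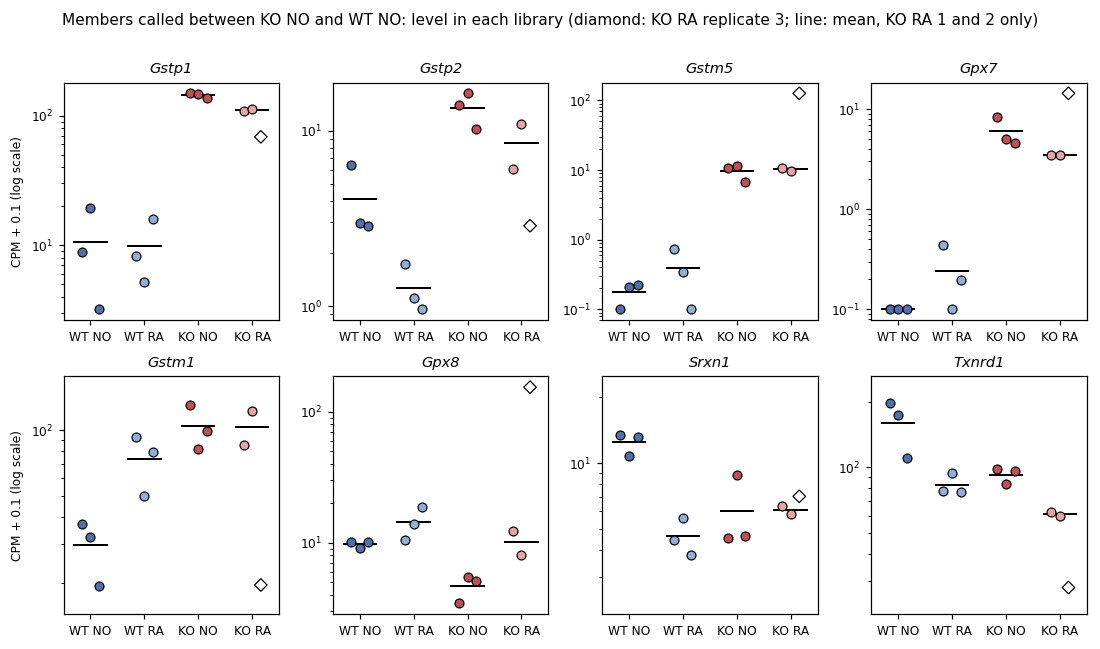
Level (CPM plus 0.1, log axis) of the 8 genes called between KO NO and WT NO in either fit, 1 point per library, with a line at the group mean (KO RA without replicate 3). Gstp1, Gstm5 and Gpx7 separate by genotype in all libraries, Srxn1 and Txnrd1 are highest in WT NO, and the diamond of KO RA replicate 3 departs from the other KO RA libraries in opposite directions for Gstm5 and Gstm1.

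The calls depended on single libraries. Without WT NO replicate 1, or without any one of the 3 KO NO libraries, the count of 3 called genes fell to 0 with 12 libraries, and without WT NO replicate 2 it fell to 1. With 11 libraries, leaving out a further one gave between 4 and 12 called genes (4 without WT NO replicate 2 or KO NO replicate 1, 5 without WT NO replicate 1, KO NO replicate 2 or KO NO replicate 3). Gpx7, Gstm5, Gstp1 and Gstm1 were called each time (alternatives chosen after the values were seen).

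After RA, Gstp1, Gstp2, Gstm5 and Gpx7 were higher in KO cells, and, without KO RA replicate 3, several abundant peroxide and superoxide enzymes were lower. With 12 libraries, 4 of 42 genes were called higher in KO RA than in WT RA (Gpx7, Gstm5, Gstp1 and Gstp2) and 0 lower, against 0.885% and 0.358% of all genes. At an unadjusted p under 0.05 there were 6 lower genes, and DESeq2 called 1 lower (Ggt7) and limma-voom 9. In both directions together, 15 of the 42 genes and 2899 of all 16502 had such a p. With 11 libraries, the same genes were called higher (4 of 4 shared) and 6 lower (Ggt7, Mgst3, Prdx1, Sod1, Sod2 and Txn1), against 4.79% and 5.73% of all genes. The 4 genes called higher with 11 libraries were all among the 5 called higher in KO NO, and these comparisons share the estimate of the spread but no library. The 4 called genes became 0 without any one WT RA or KO NO library and 2 without KO RA replicate 1. With 11 libraries, the 10 became 17 without WT NO replicate 3, 6 without WT RA replicate 1, 5 without WT RA replicate 3 or KO RA replicate 2 and 2 without KO RA replicate 1.

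For Gstp1 the log2 fold change of KO RA against WT RA was 3.32 ± 0.61 with 12 libraries (edgeR adjusted p = 0.0286). With 11 libraries the value for Gstp1 was 3.51 ± 0.61 (adjusted p = 0.00844). Gstp2 gave 2.49 ± 0.52 (adjusted p = 0.0478) and 2.84 ± 0.44 (adjusted p = 0.00496) in the same fits. The difference between these values and those in NO cells was not called (edgeR adjusted p = 0.882 for Gstp1 and 0.333 for Gstp2 with 11 libraries). Gstm5 gave 7.37 ± 1.29 (edgeR adjusted p = 0.0245) with 12 libraries and 5.12 ± 0.74 (adjusted p = 0.00365) with 11, KO RA replicate 3 being its highest library. Gpx7 gave 5.54 ± 0.99 (adjusted p = 0.0376) and 4.51 ± 0.77 (adjusted p = 0.011). With 11 libraries, leaving out KO RA replicate 1 too left the KO RA arm with 1 library, and Gpx7 and Gstp1 then had edgeR adjusted p of 0.0661 and 0.0547. Over all alternatives the adjusted p ran from 1.04e-06 to 0.185 for Gpx7, 5.13e-07 to 0.149 for Gstp1 and 0.00365 to 0.207 for Gstm5. Gstm1, called in KO NO, had a log2 fold change of 0.48 ± 0.32 here (adjusted p = 0.356), and WT RA and KO RA overlapped.

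**Figure D2:**
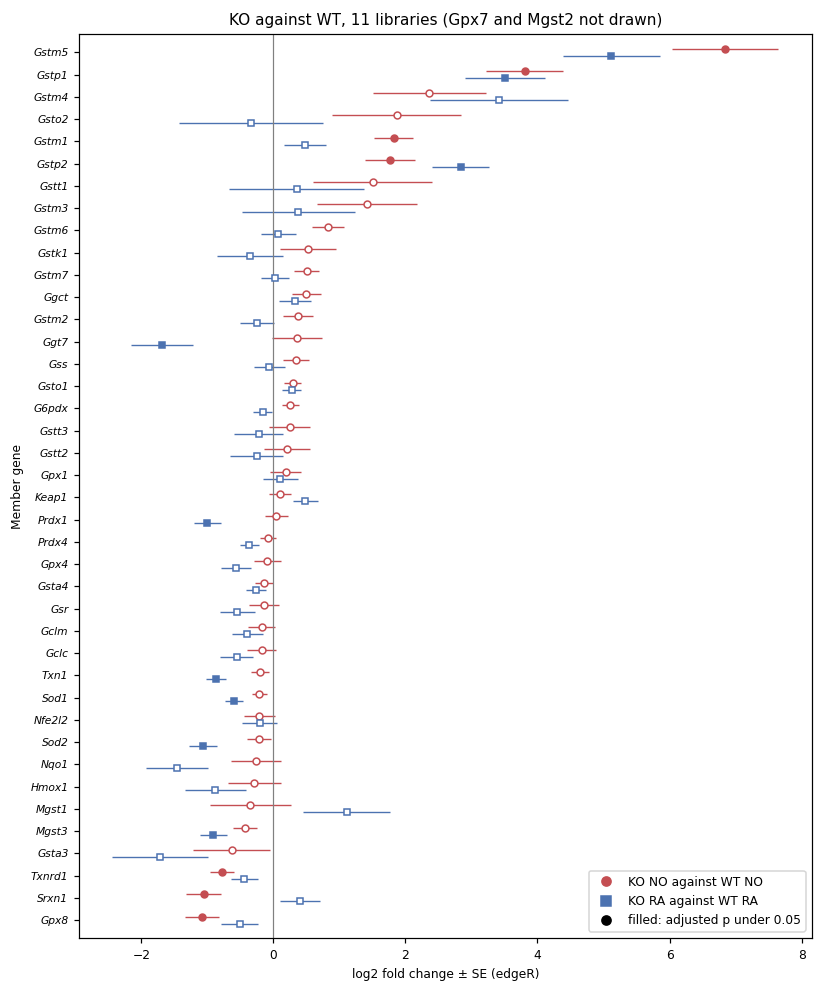
Log2 fold change of KO against WT (x axis, with standard error) for 40 of the 42 tested genes (y axis), in NO cells (red circles) and after RA (blue squares), from the fit on 11 libraries. Gstm5, Gstp1, Gstp2 and Gstm4 stand far to the right in both comparisons, Gstm4 not filled in either. Prdx1, Txn1 and Sod1 are filled (adjusted p under 0.05) left of 0 only after RA, which is a description and not a test of the difference.

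Prdx1, an abundant peroxiredoxin of the cytosol, was the clearest case of a level that turned on KO RA replicate 3. It measured 1142, 1082 and 718 CPM in WT NO, 1048, 1078 and 882 in KO NO, 935, 779 and 956 in WT RA and 416, 476 and 4874 in KO RA. KO RA replicates 1 and 2 were the lowest of the 12 libraries, and replicate 3 was the highest, 10.9-fold above their mean. The log2 fold change of KO RA against WT RA was 1.11 ± 0.76 (edgeR adjusted p = 0.464) with 12 libraries and −1.0 ± 0.20 (adjusted p = 0.0133) with 11.

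Txn1, the thioredoxin that Txnrd1 reduces, and Sod1, the cytosolic superoxide dismutase, followed the same course. Txn1 had levels of 281.5, 283 and 293 CPM in WT NO, 259, 276 and 206.5 in KO NO, 242, 282 and 218 in WT RA and 137, 133 and 803 in KO RA. Sod1 had levels of 791, 767 and 796 CPM in WT NO, 745, 672 and 606 in KO NO, 494, 628.5 and 519 in WT RA and 358, 363.5 and 1358 in KO RA. In both, KO RA replicates 1 and 2 lay below all other libraries and replicate 3 above them. That order rests in part on the TMM factors, at 1.277 and 1.225 in KO RA replicates 1 and 2 and 0.872 to 1.016 in WT RA. On unscaled counts KO RA replicates 1 and 2 overlapped WT RA for Sod1, and replicate 3 was the highest library for neither gene. Against WT RA, Txn1 gave −0.87 ± 0.15 (edgeR adjusted p = 0.00766) and Sod1 −0.60 ± 0.14 (adjusted p = 0.0214) with 11 libraries. With 12 libraries the values were 0.53 ± 0.57 and 0.34 ± 0.45, which reversed the direction in edgeR without a call (adjusted p = 0.666 and 0.738). Limma-voom, which weights libraries by quality, called both lower with 12 libraries, as it did Prdx1.

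Sod2, the mitochondrial superoxide dismutase, kept its direction in both fits. Its levels were 118, 129.7 and 75.96 CPM in WT NO, 102, 92.2 and 81.2 in KO NO, 118, 100.1 and 127 in WT RA and 55.8, 54.5 and 83.1 in KO RA. KO RA lay below WT RA in all libraries, with a log2 fold change of −0.84 ± 0.26 (edgeR adjusted p = 0.148) with 12 and −1.06 ± 0.21 (adjusted p = 0.0129) with 11 libraries. Ggt7, a gamma-glutamyltransferase family gene, stood at 2.11, 3.92 and 3.33 CPM in WT NO, 3.222, 3.44 and 5.28 in KO NO, 3.41, 2.18 and 2.63 in WT RA and 0.451, 1.23 and 1.09 in KO RA. It was lowest in KO RA, with −1.57 ± 0.43 (edgeR adjusted p = 0.107) and −1.68 ± 0.47 (adjusted p = 0.0451) against WT RA. Mgst3, a membrane-bound transferase and peroxidase, stood at 6.09, 5.06 and 5.19 CPM in WT NO, 3.69, 4.59 and 3.80 in KO NO, 13.4, 10.1 and 12.6 in WT RA and 5.51, 7.33 and 31.02 in KO RA. Its value was 0.26 ± 0.52 with 12 libraries and −0.91 ± 0.21 with 11 (edgeR adjusted p = 0.831 and 0.0237), so its direction against WT RA in edgeR turned on KO RA replicate 3, and limma-voom called it lower with 12 libraries.

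In WT cells treated with RA, Srxn1 and Txnrd1 were lower and Mgst3, Gstm1 and Prdx4 higher than in WT NO, but edgeR called these only without KO RA replicate 3. With 12 libraries, 0 of 42 genes were called by edgeR between WT RA and WT NO, against 0.321% higher and 0.0848% lower among all genes. There were 5 genes at an unadjusted p under 0.05, against 2071 of all 16502 genes. DESeq2 called 3 lower (Gstp2, Srxn1 and Txnrd1) and limma-voom called 5 higher and 10 lower, without a share over all genes to set beside them. With 11 libraries, edgeR called 3 higher (Gstm1, Mgst3 and Prdx4) and 6 lower (G6pdx, Gsto1, Gstp2, Sod1, Srxn1 and Txnrd1), against 6.03% and 5.6% of all genes. The shares of the 42 genes were thus near the background for higher genes, and above it for lower genes, with no test of the list. The 9 called genes became 17 without WT NO replicate 3, 5 without WT NO replicate 1 or WT RA replicate 1, and 4 without WT RA replicate 3.

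Srxn1 gave −1.45 ± 0.30 with 12 libraries (edgeR adjusted p = 0.0718) and −1.45 ± 0.27 with 11 (adjusted p = 0.011) in WT RA against WT NO. Txnrd1 gave −0.95 ± 0.32 (edgeR adjusted p = 0.239) and −0.95 ± 0.18 (adjusted p = 0.0124). For each, all WT RA libraries were below all WT NO libraries. Gstp2 gave −1.75 ± 0.41 (adjusted p = 0.0229) and Sod1 −0.52 ± 0.12 (adjusted p = 0.0231) with 11 libraries. Gstm1 and Mgst3 rose in the same fit, by 1.33 ± 0.29 (adjusted p = 0.0187) and 1.15 ± 0.19 (adjusted p = 0.00577).

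Prdx4, the peroxiredoxin of the endoplasmic reticulum, had levels of 78.7, 78.3 and 72.2 CPM in WT NO, 66.6, 80.9 and 67.8 in KO NO, 139, 103 and 119 in WT RA and 89.5, 97.8 and 672 in KO RA. It rose in WT RA by 0.66 ± 0.13 (edgeR adjusted p = 0.0121) with 11 libraries, and KO RA replicate 3 was its highest library. G6pdx, glucose-6-phosphate dehydrogenase, supplies the NADPH that reduces glutathione. It stood at 40.5, 37.3 and 39.6 CPM in WT NO, 49.5, 44.8 and 45.3 in KO NO, 32.2, 24.01 and 25.7 in WT RA and 23.4, 25.5 and 12.2 in KO RA. With 11 libraries it fell with RA in both genotypes. The log2 fold change was −0.51 ± 0.13 in WT (edgeR adjusted p = 0.0271). Gsto1, the omega-class transferase, stood at 70.7, 64.8 and 74.9 CPM in WT NO, 101, 79.7 and 75.6 in KO NO, 46.4, 45.6 and 54.1 in WT RA and 60.4, 57.99 and 112 in KO RA. Its change in WT was −0.52 ± 0.13 (edgeR adjusted p = 0.0306) with 11 libraries.

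In KO cells, G6pdx, Ggt7 and, without KO RA replicate 3, the abundant Prdx1, Sod1 and Txn1 were lower after RA, and Gpx8 was higher. With 12 libraries, edgeR called 2 of 42 genes higher in KO RA than in KO NO (Gpx8 and Mgst1) and 2 lower (G6pdx and Ggt7), against 3.89% and 1.59% of all genes. With 11 libraries, 2 were called higher (Gpx8 and Mgst3) and 9 lower (G6pdx, Ggt7, Gsta4, Gsto1, Nqo1, Prdx1, Sod1, Sod2 and Txn1), against 8.82% and 7.94% of all genes. In that fit 33 of the 42 genes had a negative log2 fold change, with a median of −0.57 against −0.02 over all genes. Without any one KO NO library the 4 called genes became 0, and without WT NO replicate 1 or any one WT RA library 2. With 11 libraries, the 11 became 18 without WT NO replicate 3, 7 without WT RA replicate 1, 5 or 6 without KO NO replicate 1 or 2, and 3 or 6 without KO RA replicate 1 or 2.

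G6pdx gave a log2 fold change of −1.19 ± 0.26 in KO RA against KO NO (edgeR adjusted p = 0.0257) with 12 libraries and −0.93 ± 0.14 (adjusted p = 0.00246) with 11. Ggt7 gave −2.11 ± 0.44 (adjusted p = 0.02) and −2.22 ± 0.47 (adjusted p = 0.0108). Both thus fell in either fit. Gpx8 rose in both, by 3.65 ± 0.93 (edgeR adjusted p = 0.0455) with 12 and 1.13 ± 0.28 (adjusted p = 0.0198) with 11 libraries, the size depending on KO RA replicate 3. Mgst1, a membrane-bound transferase, stood at 1.80, 1.07 and 7.17 CPM in WT NO, 1.64, 4.09 and 2.21 in KO NO, 3.65, 4.85 and 6.74 in WT RA and 9.12, 12.8 and 45.00 in KO RA. It passed with 12 libraries at 3.07 ± 0.78 (edgeR adjusted p = 0.0465) and not with 11 at 2.05 ± 0.66 (adjusted p = 0.0578), although KO RA exceeded KO NO in every library.

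Prdx1, Sod1 and Txn1 were lower in KO RA than in KO NO with 11 libraries. The values were −1.18 ± 0.20 (edgeR adjusted p = 0.00398), −0.91 ± 0.14 (adjusted p = 0.00232) and −0.88 ± 0.15 (adjusted p = 0.00404). With 12 libraries all 3 were positive in edgeR, at 0.94 ± 0.76, 0.04 ± 0.45 and 0.53 ± 0.57, and edgeR called none (adjusted p = 0.454, 0.964 and 0.585). In edgeR the direction of all 3 thus turned on KO RA replicate 3, while limma-voom with sample quality weights called all 3 lower with 12 libraries. Gsto1 gave −0.54 ± 0.15 (edgeR adjusted p = 0.0319) and Sod2 −0.74 ± 0.21 (adjusted p = 0.0336) with 11 libraries. Mgst3 rose by 0.67 ± 0.20 (adjusted p = 0.0478) in the same fit. With 12 libraries edgeR did not call Gsto1, Sod2 or Mgst3, while DESeq2 called Mgst3 higher and limma-voom called Mgst3 higher and Gsto1 and Sod2 lower. Gsta4 measured 169, 167 and 128 CPM in WT NO, 147, 133 and 139 in KO NO, 115, 102 and 134 in WT RA and 91.3, 104 and 76.9 in KO RA. KO RA was below KO NO in every library, with −0.62 ± 0.21 (edgeR adjusted p = 0.115) with 12 and −0.52 ± 0.15 (adjusted p = 0.0435) with 11.

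**Figure D3:**
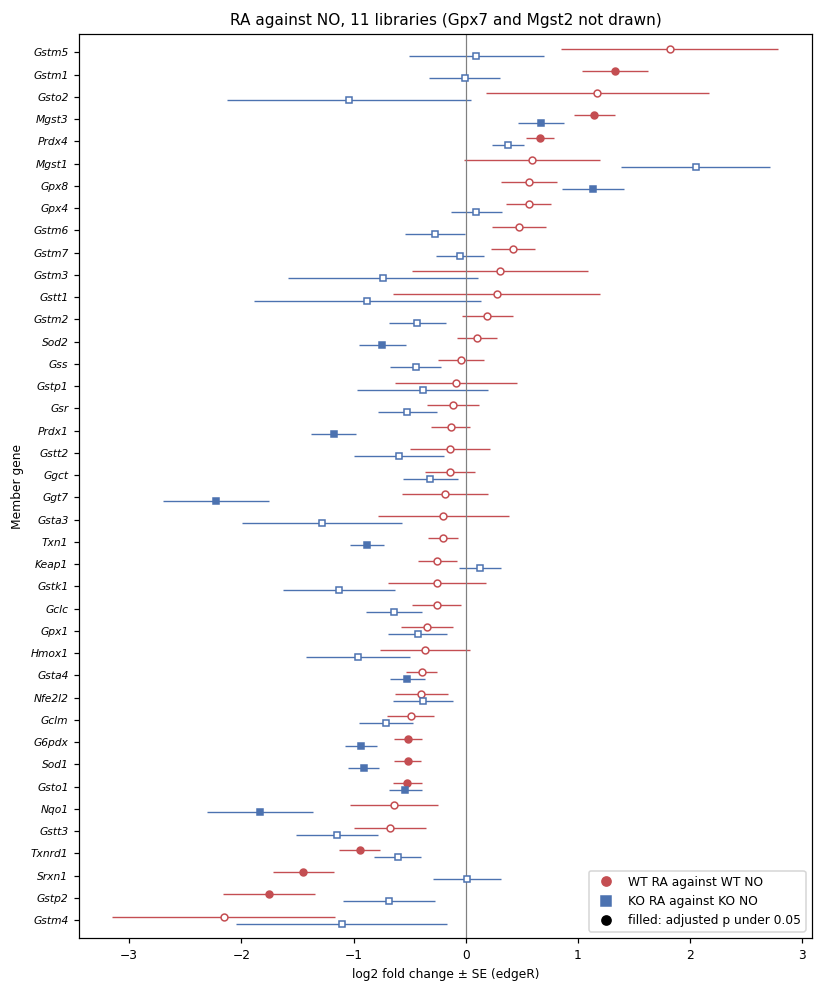
Log2 fold change of RA against NO (x axis, with standard error) for 40 of the 42 tested genes (y axis), in WT (red circles) and KO cells (blue squares), from the fit on 11 libraries. G6pdx, Sod1 and Gsto1 are filled left of 0 in both genotypes, and most KO values lie left of 0, at a median of −0.57.

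Whether RA acted differently in KO and in WT was tested by the interaction, which did not pass edgeR's threshold for any of the 42 genes. The share of all genes called in this test was 0.0% with 12 libraries and 1.45% with 11. At an unadjusted p under 0.05 there were 6 of the 42 genes with 12 libraries and 8 with 11. Of all 16502 genes tested, 1423 and 3215 had such a p, so these counts are not particular to the group. DESeq2 and limma-voom each called Srxn1 with 12 libraries, with log2 differences of 1.62 ± 0.46 (DESeq2 adjusted p = 0.0312) and 1.60 ± 0.38 (limma adjusted p = 0.0306), the gene being lower after RA in WT (3.68 to 5.53 against 10.7 to 13.3 CPM) and overlapping in KO. DESeq2 called 6 with 11 libraries (Srxn1, Ggt7, Txn1, Gpx7, Prdx1 and Gstm1). The smallest edgeR adjusted p with 11 libraries was 0.0722 for Prdx1, at −1.04 ± 0.26, followed by 0.089 for Srxn1, at 1.46 ± 0.40. A response called in KO and not in WT, as for Prdx1, is therefore not shown by edgeR to differ between them. With 11 libraries, the count of 0 became 1 without WT NO replicate 3.

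Nfe2l2, the gene of NRF2, and Keap1, its inhibitor, were not called by edgeR in any comparison, and limma-voom called Nfe2l2 lower in WT RA than in WT NO. Nfe2l2 stood at 56.8, 61.4 and 28.96 CPM in WT NO, 44.6, 37.7 and 43.3 in KO NO, 38.2, 34.3 and 38.9 in WT RA and 27.4, 37.03 and 14.4 in KO RA. Keap1 stood at 12.04, 15.4 and 9.86 CPM in WT NO, 12.8, 12.03 and 14.8 in KO NO, 11.3, 9.51 and 10.3 in WT RA and 14.3, 14.7 and 6.34 in KO RA. In KO NO relative to WT NO the log2 fold changes were −0.22 ± 0.23 and 0.10 ± 0.17 with 11 libraries (edgeR adjusted p = 0.619 and 0.771), and the groups overlapped for both. For KO RA against WT RA the values were −0.21 ± 0.27 and 0.48 ± 0.19 (adjusted p = 0.669 and 0.134).

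The enzymes of glutathione synthesis and recycling were likewise not called in any comparison by edgeR. Other tools called them lower after RA. In KO RA against KO NO, DESeq2 called Gclc with 12 libraries and Gclm with 11, and limma-voom called Gclc, Gclm and Gsr. Limma-voom also called Gclc lower in KO RA against WT RA and Gclm lower in WT RA against WT NO. Gclc, the catalytic subunit of glutamate-cysteine ligase, measured 54.6, 55.7 and 29.9 CPM in WT NO, 43.97, 34.7 and 44.2 in KO NO, 36.7, 35.9 and 43.9 in WT RA and 23.5, 29.4 and 12.2 in KO RA. Gclm, its modifier, measured 178, 178 and 91.6 CPM in WT NO, 147, 121.5 and 124 in KO NO, 102, 111.5 and 103 in WT RA and 81.6, 79.1 and 337 in KO RA. Gsr, which reduces oxidized glutathione, measured 111, 101 and 51.7 CPM in WT NO, 90.5, 74.5 and 71.8 in KO NO, 76.6, 88.3 and 76.9 in WT RA and 50.3, 60.1 and 21.4 in KO RA. In all 3 genes WT NO replicate 3 was the lowest WT NO library. KO RA replicates 1 and 2 were below all NO libraries for Gclc and Gclm, and below all but WT NO replicate 3 for Gsr. KO RA replicate 3 was the lowest of the 12 libraries for Gclc and Gsr and the highest for Gclm. In KO RA against KO NO with 11 libraries the log2 fold changes were −0.64 ± 0.25 for Gclc, −0.71 ± 0.24 for Gclm and −0.52 ± 0.26 for Gsr (edgeR adjusted p = 0.107, 0.0673 and 0.205). In KO NO against WT NO they were −0.18 ± 0.22, −0.18 ± 0.21 and −0.14 ± 0.23 (adjusted p = 0.665, 0.653 and 0.76). Gss, which completes the tripeptide, ranged from 6.0 to 11.3 CPM over the 12 libraries.

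Hmox1, haem oxygenase 1, is often read as a sign of NRF2 activity. Its levels were 118, 86.05 and 26.03 CPM in WT NO, 74.5, 50.4 and 61.5 in KO NO, 68.5, 57.8 and 51.1 in WT RA and 29.4, 34.8 and 15.7 in KO RA. The WT NO libraries alone spanned the whole range of the other NO and WT RA libraries, and the log2 fold change in KO NO was −0.29 ± 0.40 (edgeR adjusted p = 0.707). Every KO RA library lay below every WT RA and every KO NO library. The log2 fold changes of KO RA were −1.15 ± 0.47 against WT RA and −1.22 ± 0.47 against KO NO with 12 libraries (edgeR adjusted p = 0.243 and 0.145), and −0.88 ± 0.46 and −0.96 ± 0.46 with 11 (adjusted p = 0.249 and 0.185), and limma-voom called both lower. Nqo1, the quinone reductase, was scarce at 1.16, 1.48 and 2.01 CPM in WT NO, 1.67, 1.16 and 1.03 in KO NO, 1.06, 0.873 and 1.05 in WT RA and 0.451, 0.273 and 1.88 in KO RA. It was called in KO RA against KO NO with 11 libraries at −1.83 ± 0.47 (edgeR adjusted p = 0.0247), a call at levels of few counts that limma-voom made with 12 libraries and edgeR did not (−0.64 ± 0.63, adjusted p = 0.545). Gpx4, the peroxidase that protects membranes from lipid peroxidation, stood at 501, 441 and 698 CPM in WT NO, 532, 535 and 462 in KO NO, 995, 624 and 795 in WT RA and 498, 594 and 1558 in KO RA. It was not called by edgeR in any comparison, with −0.09 ± 0.20 in KO NO and −0.56 ± 0.23 in KO RA against the matching WT group (edgeR adjusted p = 0.825 and 0.146). Limma-voom called it lower in KO RA against WT RA and higher in WT RA against WT NO, the latter as DESeq2 did with 11 libraries.

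In WT NO replicate 3 several of these genes were low. Of 9 NRF2-linked genes (Nfe2l2, Gclc, Gclm, Gsr, Hmox1, Txnrd1, Nqo1, Srxn1 and Prdx1, a set put together after their values were seen), 7 were lowest in that library, with Hmox1 at 0.256 and Nfe2l2 at 0.490 of the mean of replicates 1 and 2. Of all 42 tested genes of the group, 19 (45.2%) were lowest and 13 highest there, and of all genes tested 39.5% were lowest. With 11 libraries, leaving out WT NO replicate 3 too gave 12 called genes in place of 8 in KO NO against WT NO, and 17 in place of 9 in WT RA against WT NO.

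**Figure D4:**
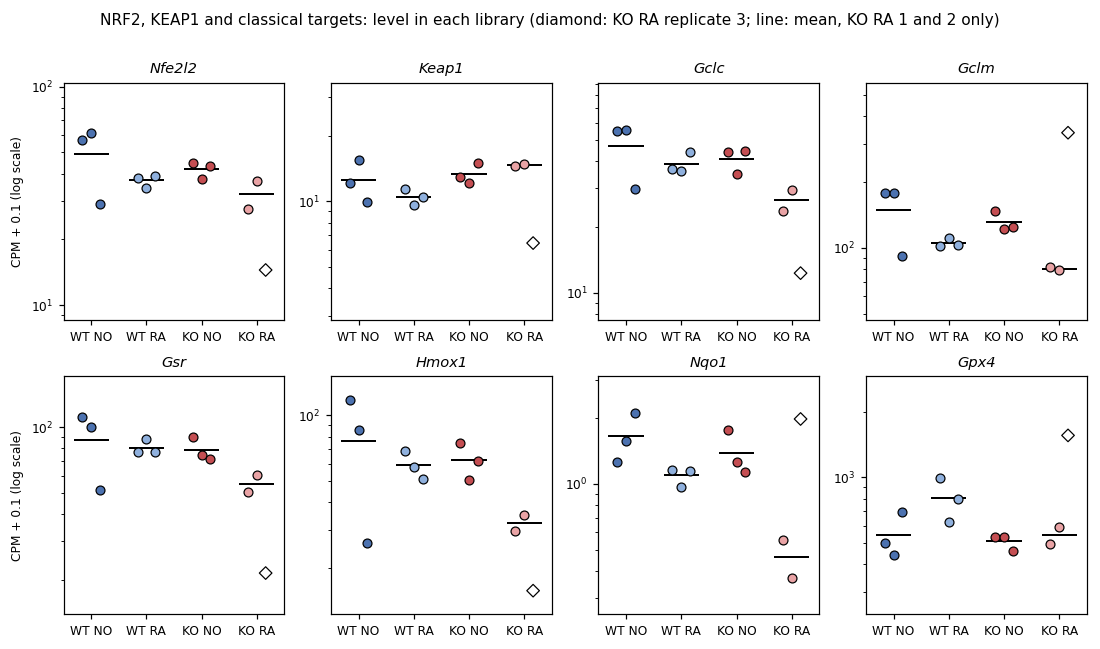
Level (CPM plus 0.1, log axis) of NRF2, KEAP1 and 6 enzymes in each library, with a line at the group mean (KO RA without replicate 3). WT NO replicate 3, the right-hand point of the first group, is the lowest of its group for Nfe2l2, Keap1, Gclc, Gclm, Gsr and Hmox1, and KO RA replicate 3 (diamond) is far above its group for Gclm and below it for Nfe2l2 and Gsr.

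The remaining tested genes were not called in any comparison by edgeR, although DESeq2 or limma-voom called Gstm4, Gstm6, Gstt1, Gstt3 and Gpx1 in some. They were Gstt1, Gstt2, Gstt3, Gstm2, Gstm3, Gstm4, Gstm6, Gstm7, Gsta3, Gstk1, Gsto2, Mgst2, Ggct, Gpx1 and Gss. Gpx1, the cytosolic peroxidase, was the most abundant of them at 132 to 293 CPM, and Gstm2 and Ggct reached 26.4 and 65.1 CPM, the latter in KO RA replicate 3. Gsto2, Gstm3 and Mgst2 stayed under 2 CPM in every library.

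KO RA replicate 3 did not depart in one direction. Of the 42 tested genes, 25 were above the mean of KO RA 1 and 2 and the ratios ran from 0.110 (Gstt3) to 15.2 (Gpx8), with a median of 1.62. Without TMM factors 17 were above 1 and the median was 0.509, with Prdx1 at 3.45, Txn1 at 1.87 and Sod1 at 1.19. With TMM factors, among the 7 genes with a canonical transcript of up to 1000 bp, 5 were above 1 and the median ratio was 5.63. Among the 17 genes over 2000 bp, 8 were above 1 and the median was 0.937. Across the 42 genes the Spearman correlation of length with the ratio was −0.18, and across 16155 tested genes −0.35, as descriptions of 1 library. The part of RNA quality in these values was not tested.

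**Figure D5:**
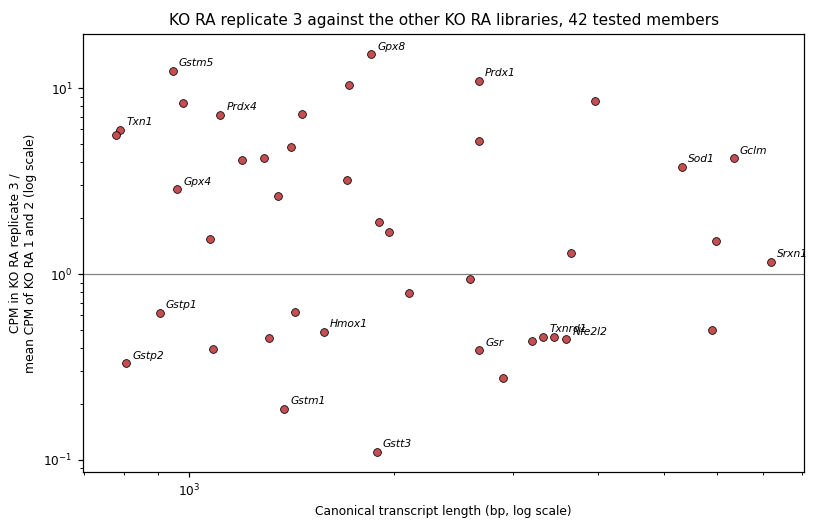
Level in KO RA replicate 3 divided by the mean of KO RA 1 and 2 (y axis, log scale) against canonical transcript length in bp (x axis, log scale), 1 point per tested gene. Gpx8, Gstm5, Prdx1 and Gstt1 lie above 10, and Gstm1 and Gstt3 below 0.2.

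Other genes of the pathway were counted from lists of genes outside the group, put together by function. Of 10 regulators of NRF2, 0 were called in any comparison with 12 libraries by edgeR. At most 1 had an unadjusted p under 0.05 in a comparison. DESeq2 called 0 of the 9 with an adjusted p, and limma-voom called 1 or 2 in each of 3 comparisons. With 11 libraries edgeR called Cul3, the KEAP1 ligase scaffold, lower in WT RA. Of 18 other NRF2 targets, edgeR called 1 higher in KO RA against WT RA, Htatip2 (adjusted p = 0.0478), and 2 lower in KO RA against KO NO. These were Me1, malic enzyme (−1.31 ± 0.32, edgeR adjusted p = 0.0408), and Taldo1, transaldolase (−0.87 ± 0.19, adjusted p = 0.0228). Malic enzyme makes NADPH and transaldolase belongs to the pentose phosphate pathway that G6pdx opens. Htatip2 is an oxidoreductase, and its levels were 0, 0.0370 and 0 CPM in WT NO, 1.05, 0.741 and 0.363 in KO NO, 0, 0 and 0.0478 in WT RA and 0.361, 1.26 and 1.88 in KO RA. WT RA was thus at or under the floor, and the adjusted p of edgeR with 11 libraries was 0.0247. In KO NO against WT NO edgeR called 0 of the 18 targets with 12 libraries, and Htatip2 higher and Cat lower with 11. With 12 libraries DESeq2 called Htatip2 higher there, and limma-voom called 2 higher and 7 lower. Limma-voom called 1 higher and 5 lower in KO RA against WT RA. It called 0 higher and 8 lower in WT RA against WT NO, and the same numbers in KO RA against KO NO.

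Of 21 other genes of glutathione metabolism 18 were tested, and edgeR called 1 with 12 libraries. Chac1, which degrades glutathione and is a target of the unfolded protein response, was lower in KO RA than in KO NO (−1.01 ± 0.24, edgeR adjusted p = 0.0338). Its levels were 31.7, 21.1 and 29.8 CPM in WT NO, 39.05, 44.2 and 40.3 in KO NO, 21.6, 29.9 and 20.9 in WT RA and 25.2, 17.7 and 18.2 in KO RA. Every KO NO library thus exceeded the other 9 libraries for Chac1. DESeq2 with 11 libraries and limma-voom with 12 called Chac1 higher in KO NO than in WT NO, while edgeR did not in either fit. Of the 18 genes limma-voom called 4 higher and 1 lower in that comparison. Glrx2, the mitochondrial glutaredoxin, had the smallest adjusted p in KO NO against WT NO at 1.22 ± 0.26 (edgeR adjusted p = 0.0518) with 12 libraries and 1.23 ± 0.19 (adjusted p = 0.00453) with 11, and its levels were 51.95, 42.9 and 32.3 CPM in WT NO, 104, 115 and 77.1 in KO NO, 44.3, 49.5 and 49.5 in WT RA and 41.8, 50.8 and 69.8 in KO RA. Every KO NO library exceeded the other 9 libraries for Glrx2. Of 17 further peroxide and thioredoxin enzymes 14 were tested, and edgeR called 1 with 12 libraries. Gpx3, the secreted peroxidase, was higher in KO RA than in WT RA (5.92 ± 0.93, edgeR adjusted p = 0.0165, and 5.93 ± 0.95 and 0.00629 with 11 libraries). In that comparison, with 12 libraries, DESeq2 called 0 of the 12 with an adjusted p, and limma-voom called 1 higher and 5 lower. In KO NO against WT NO limma-voom called 3 higher and 1 lower. Gpx3 stood at 0.599, 0.554 and 6.68 CPM in WT NO, 13.1, 10.6 and 12.3 in KO NO, 0.529, 0.485 and 1.15 in WT RA and 37.3, 51.04 and 43.6 in KO RA. Its KO RA libraries, replicate 3 included, were the highest of the 12. With 11 libraries, the 4 lists had 5 called higher and 3 lower of 60 tested in KO NO against WT NO, against 4.79% and 4.82% of all genes. They had 2 higher and 10 lower in KO RA against WT RA (4.79% and 5.73% of all genes), 1 higher and 5 lower in WT RA against WT NO (6.03% and 5.6%), and 0 higher and 11 lower in KO RA against KO NO (8.82% and 7.94%).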

How the data were processed

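Bulk RNA-Seq libraries of NE-4C cells (WT and Faf2 KO, NO and RA, 3 passages each) were processed by the authors with nf-core/rnaseq 3.22.2 (STAR and Salmon, GRCm39 with Ensembl annotation). The deposited values are estimated counts per gene, scaled from TPM and so corrected for transcript length. Across 3851 genes above 0 in only 1 library, the value fell with transcript length (Spearman −0.75). They were rounded to whole numbers. Genes passing filterByExpr (16502 of 57010) were fitted with edgeR 4.0.16 (TMM, robust quasi-likelihood, 1 coefficient per group, all 12 libraries), with Benjamini-Hochberg adjustment over all genes tested and calls at an adjusted p of 0.05. The common dispersion was 0.215. The same fit on the 11 libraries without KO RA replicate 3 stands beside it. DESeq2 1.42.0 and limma-voom (limma 3.58.1) were alternatives, with R 4.3.3 and Python 3.11.15. Totals ran from 17370049 to 30738694 counts. Floors of 3 counts, set on scaled values and not on reads, are a rough guide to counting error only. The standard errors of edgeR were taken as the absolute log2 fold change divided by the square root of the F statistic. The spread in them is between passages, pooled over all groups of a fit and moderated across genes. A library outside a comparison, such as KO RA replicate 3, therefore enters them.

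The genes, gene lists and tests were chosen with earlier results of these data known. Library values were given for genes called in any comparison in either fit and for Nfe2l2, Keap1, Gclc, Gclm, Nqo1, Hmox1, Gpx4 and Gsr. Replicates were independent passages of 1 WT and 1 KO line, so that p-values measure the spread between passages. Promoter windows came from RefSeq (GRCm38.p6) and were placed in GRCm39 by exact match. Gene positions follow GENCODE vM39, which matched 56310 genes by identifier. Correlations of same-numbered libraries ran from −0.26 to 0.11, so the numbers were not treated as pairs.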

Additional observations from a re-analysis of the deposited data

How the results depend on the processing

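The counts of called genes were sensitive to the fit, and the cause was not tested. Shares over all genes were worked out only for the edgeR fits on 12 and 11 libraries, so the other counts below have no background beside them. DESeq2 gave an adjusted p for 36 of the 42 genes with 12 libraries and for all 42 with 11. KO NO against WT NO gave 3 with edgeR, 5 with DESeq2, 6 with only the groups compared, 12 with limma-voom and 1 with at least 10 counts in every library. KO RA against WT RA gave 4, and 1 with at least 10 counts in every library, 0 with only the groups compared and 15 with limma-voom. WT RA against WT NO gave 0, and 3 with DESeq2, 2 with only the groups compared and 15 with limma-voom. KO RA against KO NO gave 4, and 8 with DESeq2, 2 without a filter, 0 with only the groups compared and 19 with limma-voom. The interaction gave 0, and 1 with DESeq2 or limma-voom. Without KO RA replicate 3, DESeq2 called 6 genes in the interaction. DESeq2 size factors in place of TMM left all 5 counts as they were.

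When libraries were dropped one at a time, the counts ran from 0 to 8, 0 to 10, 0 to 9 and 0 to 11 in the order above. With each further library left out of the 11, they ran from 4 to 12, 2 to 17, 4 to 17 and 3 to 18, and from 0 to 1 for the interaction. An arm left with 1 library was assumed to vary like the other groups.

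With the replicate block the counts were 1, 0, 0 and 3 in the same order and 0 for the interaction, and 9, 9, 8, 9 and 0 without KO RA replicate 3. Same-numbered libraries correlated between −0.26 and 0.11, so they share only a number.

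Some log2 fold changes changed sign. In KO RA against WT RA, limma-voom gave −0.51 for Sod1, −0.91 for Mgst3, −0.78 for Txn1 and −0.96 for Prdx1, and leaving out libraries gave −0.60 to 0.75, −0.91 to 0.76, −0.87 to 1.03 and −1.0 to 1.70. In KO RA against KO NO, limma-voom gave −0.84 for Sod1, −0.79 for Txn1 and −1.07 for Prdx1, and Sod1 was −0.031 without a filter and −0.12 with the replicate block. Leaving out libraries there gave −0.91 to 0.45 for Sod1, −0.88 to 1.03 for Txn1 and −1.18 to 1.53 for Prdx1, each negative only without KO RA replicate 3. Gsto1 ran from −0.54 to 0.085 and was positive without KO NO replicate 1, KO RA replicate 1 or KO RA replicate 2. Of the alternatives for single genes, 563 kept direction and side of the threshold, 58 passed it anew, 87 no longer passed it and 19 changed sign. Without TMM factors the mean summed level was 4354 CPM in WT NO, 4541 in KO NO, 3392 in WT RA and 3604 in KO RA, against 3968, 3940, 3676 and 5366 with them, and WT RA no longer overlapped the NO groups.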
